A study of Mus musculus with 3 samples.

Results

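The ephrin, semaphorin, plexin, neuropilin, Slit, Robo, netrin and Unc5 genes encode the guidance cues and receptors with which cells and axons attract or repel one another. Members were taken by name: Epha and Ephb receptors, Efna and Efnb ephrins, semaphorins named by number and letter, plexins, Nrp1, Nrp2, Robo1 to Robo4, Slit1 to Slit3, Ntn1 and Unc5a to Unc5d. Of 21153 named genes on the array, 65 were members. Of these, 59 could be tested, among 19815 genes of which 14888 have a name, because at least 1 probe was well above background on all 3 arrays in 1 genotype or the other.

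On 3 arrays, day 8 cardiac embryoid bodies without Hopx (Hopx-/-, null) were set against those keeping 1 intact allele (Hopx+/-, heterozygous), with Cy5 and Cy3 marking the RNA of 1 culture of each genotype per array. The product of Hopx is a small homeodomain protein of the developing heart, and the question was what it does in myogenesis and lineage commitment. Embryoid bodies are aggregates of differentiating embryonic stem cells, here from lines derived from blastocysts of each genotype in the presence of a MEK1 inhibitor and kept on feeder cells with LIF. In both genotypes they were formed in hanging drops without LIF and later plated on gelatin in medium with VEGF, bFGF, FGF10, ascorbic acid and Glutamax. The control is heterozygous, not wild type, and no mouse strain or age is given in the labels. Whether a replicate stands for its own line or its own differentiation is not in the labels, so p-values measure only the spread between these samples, and a difference between genotypes cannot be told apart from one between lines.

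The direction of replicate 3 is not settled. Its label gives Cy5 to the null culture, as on the other arrays, but its scanner log2 ratios correlated at r = -0.903 and r = -0.902 with those of replicates 1 and 2 across kept probes, while replicates 1 and 2 correlated at r = 0.939 with each other. In the authors' deposited value table that array runs the other way. Every ratio of replicate 3 below was turned, as in that table, and the values as labelled are given where the counts are. After turning, 2 arrays have one dye orientation and 1 the other, so dye effects do not fully cancel. The log2 ratios of Hopx itself were -2.98, -2.97 and -3.45, a fall of 3.13 (SE 0.11, n = 3 arrays, adjusted p = 2.8e-07 by limma), so that on replicate 3 the channel labelled null held the higher Hopx signal. The sources used here do not place its probe inside or outside the disrupted stretch. Between 61.9% and 72.9% of spots were well above background in a channel. With 3 arrays, precision is limited by their number.

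Ephrins are ligands held on the cell surface, those of the A class by a lipid anchor and those of the B class by a transmembrane segment, and they bind Eph receptor tyrosine kinases on neighbouring cells, so that both cells can receive a signal. Semaphorins act through plexins, with neuropilins as partners for the secreted class 3 members, while Slits are secreted ligands of Robo receptors, and netrin 1 binds Dcc and the Unc5 receptors. These systems steer axons, and they also shape blood vessels, the heart, the neural crest and the borders between tissues.

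The promoters of the guidance genes that fell most and rose most, Efna1 and Unc5a, are shown because these genes mark both ends of the response. Each is the stretch of 250 bases before a transcription start listed by RefSeq (build GRCm38.p6), written 5′ to 3′ along the gene. Efna1 lies on the minus strand (chr3:89280952-89281201, the outer of 2 listed starts) and Unc5a on the plus strand (chr13:54949161-54949410).
Efna1: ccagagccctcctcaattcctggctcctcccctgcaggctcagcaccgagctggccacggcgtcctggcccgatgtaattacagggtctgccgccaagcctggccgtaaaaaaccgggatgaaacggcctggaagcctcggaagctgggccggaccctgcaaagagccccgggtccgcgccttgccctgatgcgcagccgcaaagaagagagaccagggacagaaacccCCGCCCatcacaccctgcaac
Unc5a: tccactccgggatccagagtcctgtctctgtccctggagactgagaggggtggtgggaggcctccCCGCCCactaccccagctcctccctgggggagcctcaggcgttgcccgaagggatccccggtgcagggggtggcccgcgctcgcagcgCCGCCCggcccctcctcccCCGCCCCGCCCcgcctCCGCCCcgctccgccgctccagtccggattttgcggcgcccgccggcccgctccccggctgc
Capitals mark matches to GGGCGG or its reverse complement CCGCCC, the core of a GC box, on either strand, some of which overlap. Such a match was present 1 time in the Efna1 window and 5 times in the Unc5a window, in which G and C made up 64.8% and 76.8% of bases. Of the 13 guidance genes changed at least 2-fold, 12 have a listed start. The window at the outermost start of each was searched, and 9 of these 12 windows held the motif. Over all listed starts of all genes, inner ones included, it was in 32.7% of 32851 windows, so the shares are not counted alike. Searched on both strands as well, CAGCTG was in 2 of the 12 windows (13% of all windows) and CTTTGAT in 1 (3.21%). The motif AGGTGTG was in 0 (5.1% of all windows), the motif AGATAA in 0 (9.99%) and the motif TATAAA in 0 (12.4%). A match is a description of these letters and no evidence of a binding site.

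Guidance genes moved in both directions, with more of them higher than lower in null cultures. At an adjusted p under 0.05 by limma, 25 of the 59 members tested were higher (42.4%, against 30.2% of all genes tested), 13 were lower (22.0%, against 30.1%) and 21 did not pass. In either direction 38 passed (64.4%), close to the 60.3% of all genes, so that a call by itself sets no member apart. Their median log2 ratio was 0.19, beside 0.0034 for all genes tested. By at least 2-fold, 6 members were higher (10.2%, against 4.87% of all genes) and 7 lower (11.9%, against 6.03%), in all 22.0% of members against 10.9% of genes. Epha3 and Sema3d were tested only because they were well above background in the genotype where they are higher. Of the 57 members well above background in both genotypes, 24 were higher and 12 lower (63.2% together, against 60.7% of all genes so filtered). The counts for the members were not tested as a group. With replicate 3 as labelled, 0 members were called and 0 passed an unadjusted p under 0.05. Without replicate 3, limma called 26 higher and 12 lower (64.4% together, against 60% of all genes), 5 and 6 of them by at least 2-fold.

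**Figure D1:**
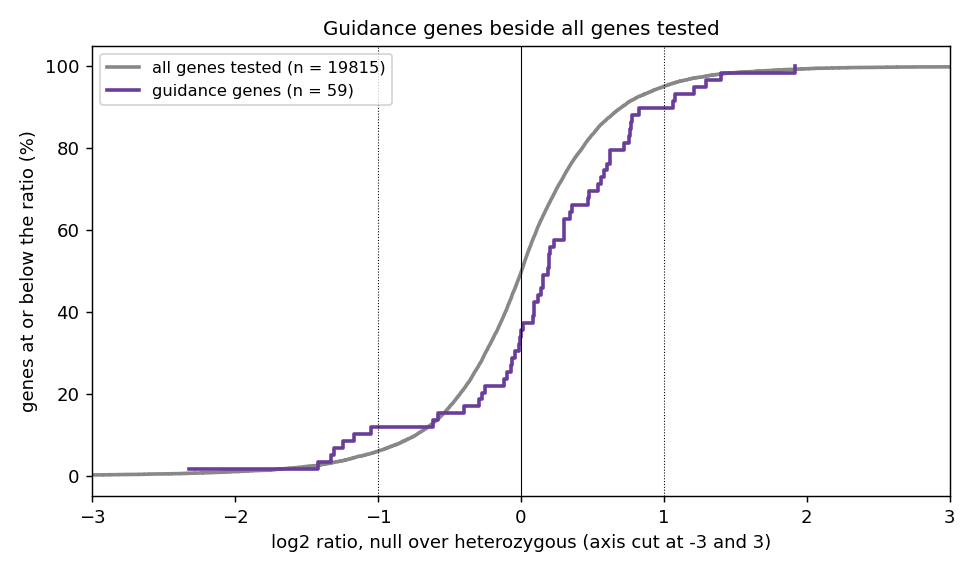
Cumulative share of genes (vertical axis, percent) at or below each log2 ratio of null over heterozygous (horizontal axis) for the 59 guidance genes tested and for all 19815 genes tested. The guidance genes lie to the right of all genes over the middle of the range, with medians of 0.19 and 0.0034, and their lower end reaches -2.32.

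Each signal below is the log2 of a channel after normalization, given for replicates 1, 2 and 3, and it can be compared between cultures but not between genes. In these bulk samples fewer cells of a type and less RNA per cell cannot be told apart. The signals of the 3 null and the 3 heterozygous cultures did not overlap for 31 of the 59 members (52.5%), as for 52.6% of all genes with all signals measured, and all 13 members changed at least 2-fold are among those 31. Over the 3 arrays the ratios of a member had a median SD of 0.21, against 0.14 for all genes tested, and 43 of the 59 (72.9%) had the same sign on all 3 arrays, against 76.1% of all genes tested. An SE is the moderated one of limma, from 0.08 to 0.18 over the members.

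**Figure D2:**
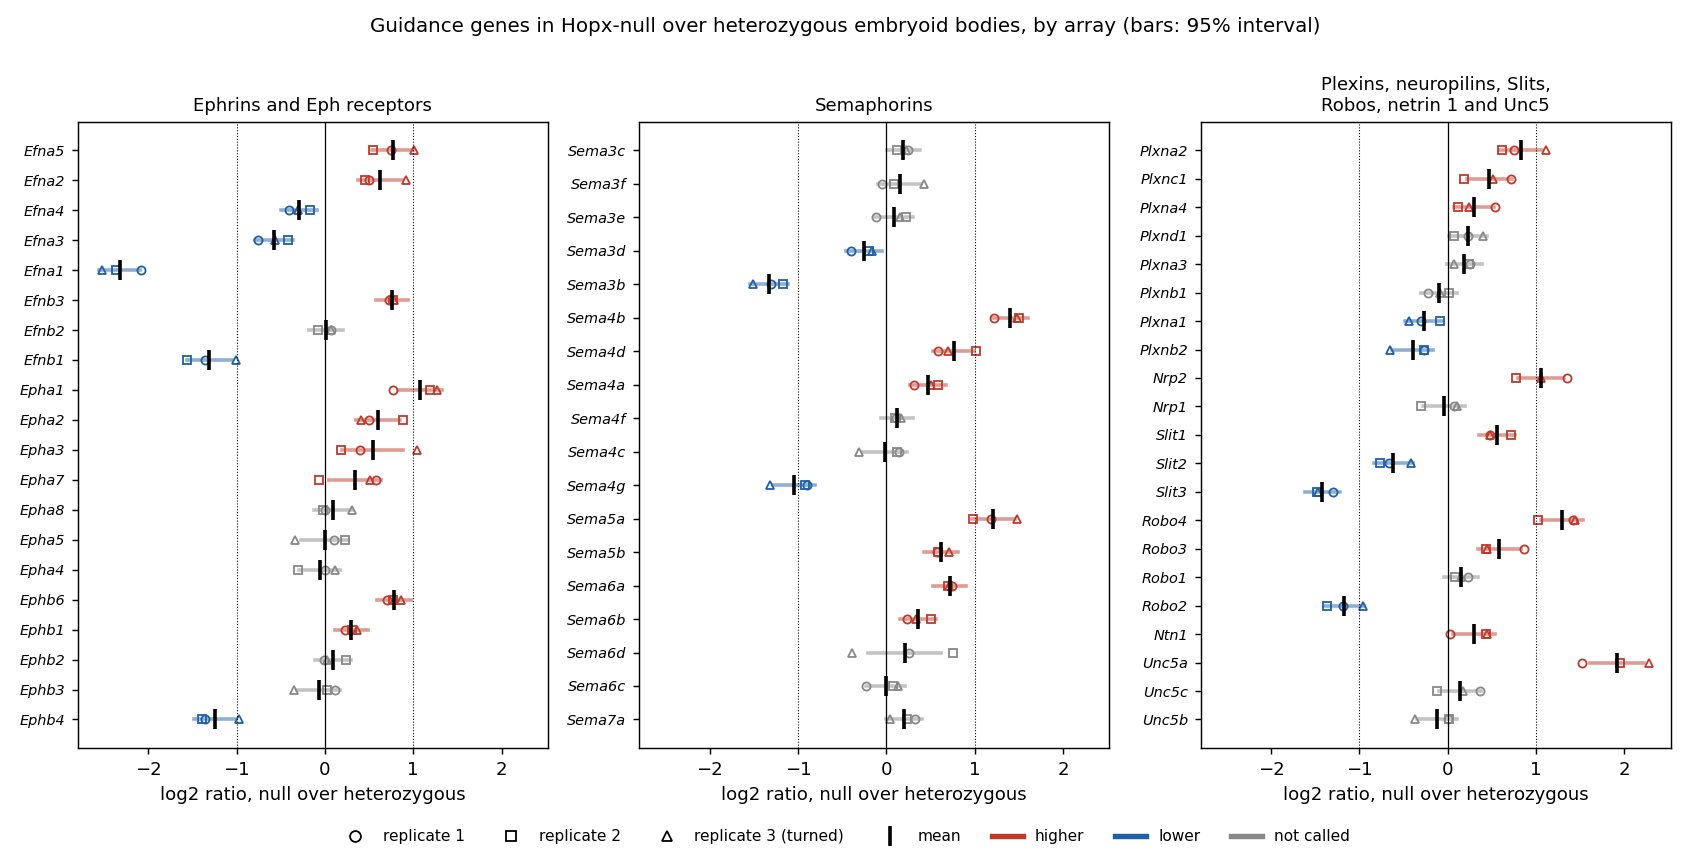
Log2 ratio of null over heterozygous (horizontal axis) for each of the 59 guidance genes tested, with 1 open symbol per array, the mean as a black tick and the 95% interval of the moderated fit as a bar, coloured by the call at adjusted p under 0.05. Dotted lines mark 2-fold. Efna1 at -2.32 and Unc5a at 1.92 lie farthest from 0, and most other members lie within 2-fold.

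Among the ephrins, Efna1 fell most, and its change was also larger than that of any other guidance gene in the fit, although Unc5a changed more with processed signals (2.53, against -2.36 for Efna1) and with median centring (2.17 against -1.89). Its signals were 11.40, 11.25 and 11.17 in null cultures and 13.49, 13.62 and 13.69 in heterozygous cultures. All null cultures lay far below all heterozygous ones, and Efna1, a ligand of several EphA receptors that is made by endothelial and epithelial cells, fell by 2.32 in log2 units (adjusted p = 7.2e-07, SE 0.10, n = 3), a 5.01-fold lower signal. The other A-class ephrins did not move with it as a group. Efna3 was at -0.76, -0.41 and -0.57 on the 3 arrays and fell by 0.58 (SE 0.09, adjusted p = 0.00081), a call lost when channels were fitted with no replicate block (adjusted p = 0.0625). Efna4 fell by 0.29 (SE 0.09, adjusted p = 0.018), a call lost without replicate 1 (adjusted p = 0.125) and a direction that turned with median centring in place of loess (0.035, adjusted p = 0.806). Efna5, with ratios of 0.75, 0.55 and 1.00, rose by 0.77 (SE 0.10, adjusted p = 0.00027), and Efna2 rose by 0.62 (SE 0.11, adjusted p = 0.0011). All 5 ephrin-A genes passed, 3 lower and 2 higher. Efna1, Efna3 and Efna4 lie beside one another on chromosome 3.

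The 3 B-class ephrins went 3 ways. The signals of Efnb1, an X-linked ephrin that acts in the neural crest and skeleton, were 12.53, 12.20 and 12.35 in null cultures and 13.89, 13.76 and 13.36 in heterozygous cultures. The groups did not overlap, and Efnb1 fell by 1.31 (SE 0.11, n = 3, adjusted p = 2.1e-05), a 2.48-fold lower signal, or by 0.87 with median centring. Efnb3, with ratios of 0.73, 0.77 and 0.78 that lay close together, rose by 0.76 (SE 0.08, adjusted p = 7.3e-05). Efnb2, the ephrin that marks arteries and binds Ephb4, had ratios of 0.06, -0.08 and 0.07 and a mean of 0.02 with an interval from -0.17 to 0.21 (adjusted p = 0.88), and its other probe gave -0.02. With median centring without loess, which raised the median of all genes by 0.23, Efnb2 stood at 0.42 (adjusted p = 0.015).

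Of the EphA receptors, 7 of 9 were tested, and 4 were higher (Epha3 among them), 0 lower and 3 not called. Epha1, found on epithelia, had signals of 11.14, 11.27 and 11.47 in null cultures and 10.36, 10.09 and 10.20 in heterozygous cultures. It was higher in every null culture and rose by 1.08 (SE 0.11, n = 3, adjusted p = 5.5e-05), a 2.11-fold higher signal, or by 0.89 in the authors' deposited value table. Epha2, another receptor of ephrin-A1, rose by 0.60 (SE 0.11, adjusted p = 0.0014), with ratios of 0.50, 0.89 and 0.41. Epha3 was dim. It was not well above background in any heterozygous culture and was tested only through the null cultures, where it is higher. In the fit its signal lay 1.45-fold higher there (adjusted p = 0.013), with a log2 interval from 0.20 to 0.88. That size is open to dye bias and rests on dim heterozygous signals, which lay above the lowest signal counted as well above background. The log2 ratio of Epha3 was 0.54 in the fit, 0.29 without replicate 3 and 0.32 in the authors' deposited value table. With the scanner software's processed signals it was 2.13, so its size is not firm. Epha7 passed narrowly at 0.34 (SE 0.13, adjusted p = 0.046) with ratios of 0.58, -0.07 and 0.51 that differ in sign. It lost its call without replicate 1 (adjusted p = 0.235) and without replicate 3 (adjusted p = 0.113), and stood at 0.55 without replicate 2. Its 2 other probes, at -0.07 and 0.08, did not pass. Epha4, Epha5 and Epha8, with ratios of -0.06, -0.0013 and 0.09, did not pass.

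All 5 EphB receptors were tested, with 2 higher, 1 lower and 2 not called. Ephb4, the receptor for ephrin-B2 that marks veins, had signals of 9.96, 10.08 and 10.08 in null cultures and 11.32, 11.47 and 11.06 in heterozygous cultures. The null cultures were all lower, and Ephb4 fell by 1.24 (SE 0.10, n = 3, adjusted p = 1.8e-05), a 2.37-fold lower signal. Its other probe, which was dimmer, gave -0.66, -0.42 and -0.17 and fell by 0.42 (SE 0.11, adjusted p = 0.0089), so the direction was shared and the size was not, the mean over both probes being -0.83. Ephb6, which lacks kinase activity, rose by 0.78 (SE 0.08, adjusted p = 7.5e-05), with ratios of 0.70, 0.78 and 0.86. Ephb1 rose by 0.30 (SE 0.08, adjusted p = 0.013), a call lost without replicate 2 (adjusted p = 0.0691). Ephb2 at 0.09 and Ephb3 at -0.07 did not pass, although with median centring Ephb3 stood at 0.38 (adjusted p = 0.040).

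Of the 20 semaphorins on the array, 18 were tested, and 7 were higher, 3 lower and 8 not called, with a median of 0.20. Of the secreted class 3, 0 of 5 tested were higher and 2 were lower, Sema3d among them. Sema3b, which repels axons and restrains growth of some tumours, had signals of 10.54, 10.45 and 10.07 in null cultures and 11.85, 11.63 and 11.57 in heterozygous cultures. The groups stood apart, and Sema3b fell by 1.33 (SE 0.09, n = 3, adjusted p = 7.1e-06), a 2.51-fold lower signal, or by 0.94 with median centring. Sema3d is known from the heart's outflow tract and neural crest. It was not well above background in any null culture and was tested only through the heterozygous cultures, where it is higher. In the fit its signal was 1.19-fold lower in null cultures (adjusted p = 0.035), with a log2 interval from -0.45 to -0.05. Its ratio was -0.25 in the fit, but -2.20 with processed signals, and its call was lost without replicate 1 (adjusted p = 0.231) and without replicate 2 (adjusted p = 0.0878). Sema3c, an attractant for cells that enter the outflow tract, stood at 0.19 (SE 0.08, adjusted p = 0.070), Sema3e, the ligand of plexin D1, at 0.09 and Sema3f at 0.15. These 3 did not pass, but Sema3c did with processed signals (0.49, adjusted p = 0.023), and Sema3f with a dye term (0.22, adjusted p = 0.034) and with median centring (0.57, adjusted p = 0.0062). Sema3a, a classic repellent of axons, was well above background in 2 null cultures and 1 heterozygous culture and was not tested.

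Class 4 semaphorins are transmembrane proteins, and many of them act on B plexins. Sema4b had signals of 9.24, 9.15 and 8.91 in null cultures and 8.02, 7.65 and 7.43 in heterozygous cultures. It was higher in every null culture and rose by 1.40 (SE 0.09, n = 3, adjusted p = 4.7e-06), a 2.64-fold higher signal. Sema4g had signals of 8.62, 8.39 and 8.14 in null cultures and 9.51, 9.31 and 9.46 in heterozygous cultures. It went the opposite way to Sema4b, falling by 1.05 (SE 0.10, n = 3, adjusted p = 4.9e-05), or by 0.76 with median centring. Sema4d, a ligand of plexin B1 that is abundant on lymphocytes and other blood cells, rose by 0.76 (SE 0.10, adjusted p = 0.00026) with ratios of 0.58, 1.01 and 0.70, but did not pass when channels were fitted without the array as a replicate block (adjusted p = 0.300). Its signals overlapped between genotypes because both channels were low on replicate 1. Sema4a rose by 0.47 (SE 0.09, adjusted p = 0.0020). Sema4c at -0.02 and Sema4f at 0.12 did not pass.

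Both class 5 semaphorins, which carry thrombospondin repeats, rose. Sema5a had signals of 9.46, 10.16 and 10.83 in null cultures and 8.27, 9.18 and 9.35 in heterozygous cultures. The groups came close, since the lowest null culture was just above the highest heterozygous one, yet within each array the null channel was higher. Sema5a rose by 1.21 (SE 0.11, n = 3, adjusted p = 2.4e-05), a 2.32-fold higher signal. Sema5b rose by 0.62 (SE 0.08, adjusted p = 0.00027), or by 1.55 with processed signals, and its other probe rose by 0.35. In class 6, transmembrane ligands of A plexins, Sema6a had ratios of 0.74, 0.70 and 0.71, the closest of any member tested, and rose by 0.72 (SE 0.08, adjusted p = 1.0e-04). Sema6b rose by 0.36 (SE 0.09, adjusted p = 0.0079), but did not pass when replicate 2 was left out (adjusted p = 0.0742). Sema6d, a class member with a part in heart development, had ratios of 0.25, 0.76 and -0.39. They differ in sign, and their SD of 0.57 was the widest of all members, with a mean of 0.21 (SE 0.18, adjusted p = 0.35). Without replicate 3 it stood at 0.50 (adjusted p = 0.0028). Sema6c at -0.0077 and Sema7a, a lipid-anchored semaphorin, at 0.20 (adjusted p = 0.088, and 0.28 with adjusted p = 0.025 without replicate 3) did not pass.

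Plexins are the main receptors of semaphorins. Of 8 plexins tested, 3 were higher, 2 lower and 3 not called, and none reached 2-fold. Plxna2, a plexin of the neural crest and outflow tract, was nearest to 2-fold, with ratios of 0.76, 0.62 and 1.11, and rose by 0.83 (SE 0.11, n = 3, adjusted p = 0.00023). Plxnc1, the receptor of semaphorin 7A, rose by 0.47 (SE 0.11, adjusted p = 0.0058), or stood at 0.18 (adjusted p = 0.337) in the authors' deposited value table. Plxna4 rose by 0.30 (SE 0.10, adjusted p = 0.030), a call lost without replicate 1 (0.18, adjusted p = 0.231). Plxnb2 fell by 0.40 (SE 0.10, adjusted p = 0.0091) and Plxna1 by 0.27 (SE 0.09, adjusted p = 0.035). With median centring Plxnb2 turned to 0.036 and Plxna1 stood at -0.012, and Plxna1 lost its call without replicate 1 and without replicate 3 (adjusted p = 0.122 for each). Plxna3, Plxnb1 and Plxnd1, the last an endothelial plexin, did not pass at 0.19, -0.10 and 0.23. Plxna3 passed without replicate 3 (0.25, adjusted p = 0.042), and the dimmer probe of Plxnd1 rose by 0.56 (SE 0.09, adjusted p = 0.00096). Plxnd1 also passed with a dye term (0.27, adjusted p = 0.013), with median centring (0.65, adjusted p = 0.0023) and with the mean over its probes.

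The neuropilins, which also bind VEGF, differed from each other. Nrp2, which acts with class 3 semaphorins and in lymphatic vessels and veins, had signals of 13.62, 13.41 and 13.60 in null cultures and 12.27, 12.64 and 12.54 in heterozygous cultures. It was higher in every null culture and rose by 1.06 (SE 0.11, n = 3, adjusted p = 7.8e-05), a 2.09-fold higher signal, or by 0.92 without replicate 1. The other probe of Nrp2 rose by 0.79 (SE 0.11). Nrp1 had ratios of 0.07, -0.30 and 0.11 and a mean of -0.04 with an interval from -0.28 to 0.19 (adjusted p = 0.75).

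The Slit and Robo genes held 3 of the 13 members changed at least 2-fold. Slit3, which is known from the diaphragm, the heart and vessels, had signals of 10.12, 9.75 and 9.59 in null cultures and 11.42, 11.23 and 11.06 in heterozygous cultures. All null cultures were lower, and Slit3 fell by 1.42 (SE 0.09, n = 3, adjusted p = 3.1e-06), a 2.67-fold lower signal. Slit2, with ratios of -0.67, -0.77 and -0.41, fell by 0.62 (SE 0.10, adjusted p = 0.00063). Slit1, the Slit most confined to the nervous system, went the other way with ratios of 0.48, 0.72 and 0.48 and rose by 0.56 (SE 0.09, adjusted p = 0.00072). Among the receptors, Robo4, the Robo of endothelial cells, had signals of 10.88, 10.58 and 10.70 in null cultures and 9.47, 9.56 and 9.26 in heterozygous cultures. It was higher in every null culture and rose by 1.29 (SE 0.10, n = 3, adjusted p = 1.5e-05), a 2.45-fold higher signal. Robo2, a receptor of axons and of the developing kidney, had signals of 6.91, 6.80 and 6.97 in null cultures and 8.09, 8.16 and 7.94 in heterozygous cultures. It was lower in every null culture and fell by 1.17 (SE 0.10, n = 3, adjusted p = 1.9e-05). Its ratio was -1.88 with processed signals, -0.92 in the authors' deposited value table and -0.67 (SE 0.14) on its other probe. Robo3, which lets axons cross the midline, rose by 0.58 (SE 0.11, adjusted p = 0.0015), or by 1.77 with processed signals, and Robo1 did not pass at 0.15 (SE 0.08, adjusted p = 0.14).

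In the netrin system the receptor Unc5a rose most of all guidance genes. Its signals were 9.29, 9.32 and 9.37 in null cultures and 7.78, 7.37 and 7.09 in heterozygous cultures. The null cultures lay close together and far above the others, and Unc5a, a repulsive netrin receptor of neurons, rose by 1.92 (SE 0.13, n = 3, adjusted p = 7.0e-06), a 3.78-fold higher signal. Ntn1 itself had ratios of 0.03, 0.44 and 0.44 and passed at 0.30 (SE 0.10, adjusted p = 0.033), but not without replicate 2 (adjusted p = 0.177) or without replicate 3 (adjusted p = 0.0892). Unc5b, the Unc5 receptor of endothelial cells, stood at -0.12 with an interval from -0.35 to 0.11, and Unc5c at 0.14 with one from -0.10 to 0.38, and neither passed. The dimmer probe of Unc5c was lower at -0.25 (SE 0.09, adjusted p = 0.034). Unc5d and Epha6 were not well above background in any culture, and Epha10, Plxnb3 and Sema3g were so in 1 null culture and in no heterozygous culture, so these 5 and Sema3a were not tested.

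**Figure D3:**
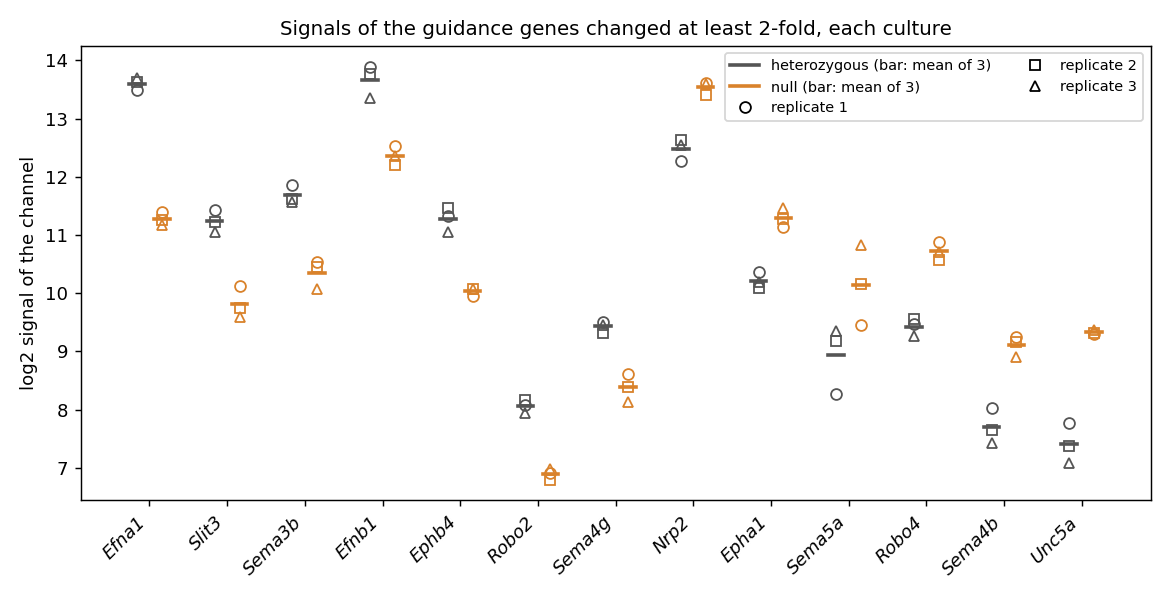
Log2 signal of each channel (vertical axis) for the 13 guidance genes changed at least 2-fold, ordered by ratio, with 1 symbol per culture and a bar at the mean of the 3 cultures of a genotype. For Efna1, heterozygous cultures lie between 13.49 and 13.69 and null cultures between 11.17 and 11.40, and in none of the 13 genes do the genotypes overlap.

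Seen by role, 12 of 30 ligands tested were higher and 9 lower, with 2 and 5 by at least 2-fold, while 13 of 29 receptors were higher and 4 lower, with 4 and 2 by at least 2-fold. Of all genes tested, 30.2% were higher and 30.1% lower, with 4.87% and 6.03% by at least 2-fold. Ligand and receptor of a known partnership did not always share a direction: Efna1 fell while Epha1 and Epha2 rose, and Ephb4 fell while Efnb2 did not pass. Slit2, Slit3 and Robo2 fell, while Slit1 rose. Whether ligands and receptors differ was not tested.

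The genes changed at least 2-fold were recomputed under each alternative. Across 12 alternatives that keep replicate 3 turned, the ratio of Efna1 ran from -2.44 to -1.89, of Slit3 from -1.50 to -1.04, of Unc5a from 1.72 to 2.53 and of Sema4b from 1.20 to 1.80. These genes, Robo4 and Sema5a kept 2-fold in every alternative, and the rest did not. The smallest changes of the rest were -0.87 for Efnb1, 0.89 for Epha1, -0.83 for Ephb4, 0.92 for Nrp2, -0.92 for Robo2, -0.94 for Sema3b and -0.76 for Sema4g. The 13 genes changed at least 2-fold passed in all 12 alternatives, except that 8 of them (Efnb1, Epha1, Ephb4, Nrp2, Robo4, Sema4g, Sema5a and Unc5a) did not pass with an ordinary t statistic per probe (adjusted p from 0.0516 to 0.0708). That statistic called 9 members in all (15.3%, against 20.2% of all genes), Efna1, Efnb3, Ephb6, Robo2, Sema3b, Sema4b, Sema5b, Sema6a and Slit3. In the authors' deposited value table, Efna1 stood at -2.28 and Unc5a at 1.72, and 19 members were higher and 9 lower. Together these were 47.5% of members, against 41.2% of all genes called with that table. With replicate 3 as labelled, the means of these 13 ran from -0.65 for Efna1 to 0.42 for Sema4b, none of them called.

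**Figure D4:**
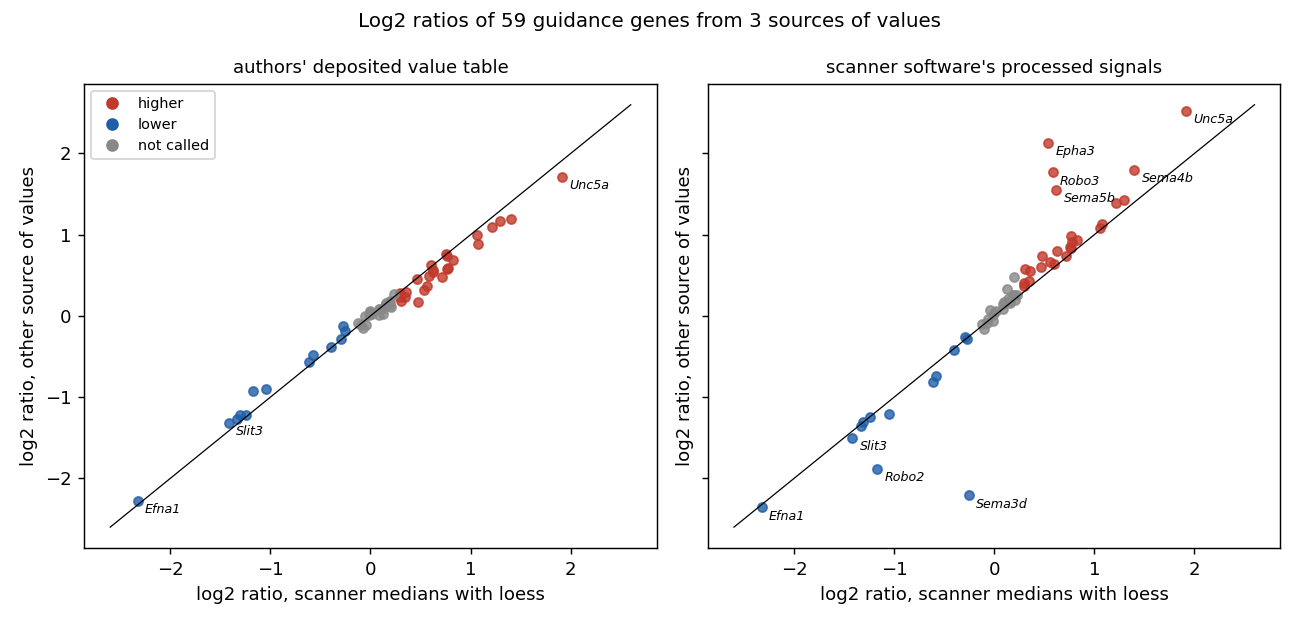
Log2 ratios of the 59 guidance genes from the authors' deposited value table (left) and from the scanner software's processed signals (right), on the vertical axes, against the ratios used here, on the horizontal axes, coloured by the call here, with the line of equality. Most points lie near the line, while with processed signals the dim genes Epha3 at 2.13, Robo3 at 1.77, Sema5b at 1.55 and Sema3d at -2.20 lie farther from 0.

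Other genes of these pathways were called in shares near those of all genes tested (30.2% higher and 30.1% lower). Of 23 tested effectors and regulators of Eph signalling, 7 were higher and 8 lower (median -0.02), among them Sla, an adaptor of blood cells, at 1.30 (SE 0.12), Chn2, a Rac-inactivating chimaerin, at -1.12 (SE 0.08) and Inppl1, a lipid phosphatase, at -1.05 (SE 0.13). Of 28 tested partners and effectors of semaphorins, 9 were higher and 8 lower (median -0.05). Among the higher ones, Chl1 and Trem2 were not well above background in any heterozygous culture and were tested only through the null cultures. Crmp1, which relays semaphorin signals to the neuronal cytoskeleton, rose by 2.74 (SE 0.11, n = 3, adjusted p = 5.6e-07), with ratios of 2.86, 2.94 and 2.42 that all lay above those of any guidance gene on the same array. Tyrobp, an adaptor of myeloid cells, stood at 1.31 (SE 0.11). Of 24 tested partners of Slit, Robo and netrin, 8 were higher and 9 lower (median -0.02), with 4 lower by at least 2-fold and 0 higher. Nell2, among the higher ones, was likewise tested only through the null cultures. Dscam, a netrin receptor and adhesion protein, fell by 2.28 (SE 0.10, adjusted p = 6.2e-07), Flrt3, a ligand of Unc5 receptors, by 1.52 (SE 0.10), and Dcc, the attractive netrin receptor, by 1.32 (SE 0.20). Dcc fell on all 3 arrays, with ratios of -1.31, -1.99 and -0.67 that spread widely.

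Markers of several cell types also differed between the genotypes, in both directions, and their part in the guidance gene differences was not tested. All 14 tested cardiomyocyte markers were lower (median -3.01). The summed signal of the 15 markers on the array ranged from 26505 to 38331 in null and from 261895 to 331368 in heterozygous cultures. Outlier spots removed Tnnt2 from the sums of replicate 1. Each sum below likewise covers all markers of a list on the array, tested or not. Pln, the calcium pump inhibitor phospholamban, was the 1 cardiomyocyte marker not well above background in any null culture. Of 17 endothelial markers, 12 were higher and 3 lower (median 0.55), with sums from 39817 to 41337 in null and from 36387 to 38251 in heterozygous cultures. None lacked a culture well above background in either genotype. Beside them, Robo4 and Nrp2 rose, Ephb4 and Efna1 fell, and Efnb2, Plxnd1 and Unc5b did not pass, although the dimmer probe of Plxnd1 rose. Of 12 tested neuroectoderm markers, 11 were higher and 0 lower (median 1.51), with sums from 19392 to 22688 in null and from 4914 to 5900 in heterozygous cultures, where Neurog2 and Neurod1 were not well above background. The neuronal receptor Unc5a and Slit1 moved the same way, and Robo2 and Dcc did not. Of 13 tested blood markers, 12 were higher and 1 lower (median 1.97, sums from 145320 to 178961 and from 37816 to 64931). Spi1 was not well above background in any heterozygous culture. Of 17 endoderm markers, 15 were lower and 1 higher (median -1.93, sums from 25955 to 31870 and from 142100 to 172468). Early mesoderm markers were higher for 12 of 12 (median 1.40), pluripotency markers higher for 10 and lower for 3 of 13 (median 1.07), fibroblast markers higher for 8 and lower for 1 of 14 (median 0.43) and neural crest markers higher for 5 and lower for 1 of 8 (median 0.30). Sums for these 4 lists ran from 8118 to 9293, 49056 to 55022, 64485 to 88758 and 4183 to 5079 in null and from 2340 to 2843, 25318 to 28966, 25293 to 52197 and 5460 to 5856 in heterozygous cultures. Outlier spots removed Col1a1 and Vim from the fibroblast sums of replicate 1 and Postn from those of replicate 2. The fibroblast sums therefore do not cover the same genes on every array. Of the genes on these 4 lists, T and Mixl1 of early mesoderm and Foxd3, Tfap2b and Pax7 of the neural crest were not well above background in any heterozygous culture. T, Mixl1 and Foxd3 are among those counted as higher and were tested only through the null cultures. Msgn1 of early mesoderm was well above background in no culture of either genotype.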

How the data were processed

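Spot and local background intensity values of both channels were deposited from Agilent Feature Extraction, version 11.5.1.1 per the file headers and 8.5.1.1 per the submitters' processing notes. The authors also deposited a table of values, read here as log2 ratios with replicate 3 turned, since on bright probes its slopes against the scanner ratios were 0.94, 0.95 and -0.94. Its column medians were -0.10, -0.11 and 0.07, and its normalization and centring are not known. In limma 3.58.1 (R 4.3.3), median signals were corrected by normexp (offset 50) and ratios normalized by loess within arrays, with control and outlier spots at weight 0 and outlier spots then left out. The design assumed both genotypes on every array and no further covariate. A probe was kept if well above background on all 3 arrays in the null or in the heterozygous channel (24575 of 39429 probes). lmFit and eBayes tested each mean ratio against 0, with Benjamini-Hochberg adjustment over the kept probes, and a gene was given its brightest kept probe. The test was tried on simulated ratios. All arrays came from 1 slide, so no batch could be tested.

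Names came from RefSeq accessions (GRCm38.p6), which named 71.1% of probes. Proteins were not analysed here. The members and gene lists were chosen with earlier results of these data known. All members are named, with full statistics for those changed at least 2-fold and the largest per family otherwise. The rule further names Hopx and up to 3 called genes of each list of pathway genes. Marker and pathway genes not well above background, and neighbours of Efna1, were named after their values were seen. Alternatives are given in the closing section.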

Additional observations from a re-analysis of the deposited data

How the results depend on the processing

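With replicate 3 as its label has it, limma called 0 genes of 19815 (62 at unadjusted p under 0.05) and 0 guidance genes higher and 0 lower, 0 and 0 by at least 2-fold (0 at unadjusted p under 0.05). The median of the guidance genes was then 0.054, with Epha3 at -0.15, Plxna1 at 0.018 and Plxnb2 at 0.040, as follows from 1 array of opposite sign. Under median centring in place of loess, the medians of all genes and of the guidance genes stood at 0.23 and 0.45, with 12 higher and 3 lower by at least 2-fold, Efna4 at 0.035 and Plxnb2 at 0.036. It gave 78.3% of called guidance genes as higher, against 65.8%, and 74.0% of all called genes, against 50.1%. By an ordinary t statistic, calls came to 3995 genes, 5 guidance genes higher and 4 lower, 1 and 4 by at least 2-fold. The scanner software's processed signals gave a median of 0.25. Leaving out each replicate in turn, 9836 to 11877 genes were called, with 22 to 26 guidance genes higher and 10 to 12 lower, 5 to 6 and 6 to 7 by at least 2-fold, and medians of 0.17 to 0.19. The arrays pair the cultures. In a fit of channels with no replicate block, 18 guidance genes were higher and 9 lower (45.8% together, against 41.1% of all genes). The 13 at least 2-fold kept their calls, and Efna3, Efna4, Epha3, Epha7, Ephb1, Ntn1, Plxna1, Plxna4, Sema3d, Sema4d and Sema6b lost theirs. The other alternatives (filter, dye term, authors' table, mean over probes) kept the counts within 1.5 times, and outside Efna4 and Plxnb2 no called guidance gene changed direction except with replicate 3 as labelled. Where no cause is given, the cause was not tested. Dim probes limit the sizes given for Epha3, Robo3, Sema3d and Sema5b.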

Other observations

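Efna1, Efna3 and Efna4 lie beside one another on mouse chromosome 3 in the RefSeq gene table, and their neighbours were looked at after the values of these 3 genes were seen. Among 8 tested protein-coding genes within 5 places on either side, 6 were lower in null cultures by limma and 2 did not pass. The lowest was Zbtb7b, a zinc finger transcription factor, at -0.95 (SE 0.09, n = 3 arrays, adjusted p = 4.0e-05). Adam15, a membrane metalloprotease, stood at -0.52 (SE 0.09, adjusted p = 0.0012) and Slc50a1, a sugar transporter, at -0.42 (SE 0.09, adjusted p = 0.0036). Dpm3 and Muc1, at -0.0027 and -0.086, did not pass. Of all genes tested, 30.1% were lower.

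The overall signal of 6 guidance genes (10.2% of those tested), averaged over both genotypes, differed by at least 1 on the log2 scale between arrays, against 6.30% of all genes tested. For Robo1 the mean log2 signal of both channels was 8.38 on replicate 1, 10.1 on replicate 2 and 10.4 on replicate 3, while its log2 ratio between the genotypes lay between 0.08 and 0.23. Sema4d (7.39, 9.05 and 9.31) and Sema5a (8.65, 9.69 and 10.3) were likewise lowest on replicate 1. The others were Epha4, Ntn1 and Sema3c.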
